A study of Homo sapiens with 2 samples.

Results

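DEAD and DEAH box helicases are ATPases that bind RNA and unwind or remodel it, or strip proteins from it. Their family names spell, in amino acid letters, a motif of the ATPase site that contacts the nucleotide and its magnesium ion. The DEAH members DHX16, DHX38, DHX8 and DHX15 and the DEAD members DDX46, DDX23 and DDX39B drive the steps of the splicing cycle, so these transcripts encode parts of the machine that splices them. Other members act in ribosome assembly, mRNA export, translation, mRNA decay and innate immunity.

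The genes were taken by name, as every symbol that begins with DDX or DHX followed by a digit, and 50 of the 12254 gene symbols in the 5 deposited splicing tables match. Of these, 49 are in the skipped-exon table (33 DDX and 16 DHX symbols) and DDX39B appears only among alternative 3′ splice sites. They account for 477 of the 67154 exons in the skipped-exon table. The name pattern also takes DDX26B, which is now called INTS6L and is no DEAD box helicase, the antisense RNA gene DDX11-AS1 and the pseudogene DDX12P. Of the family members in the lists used here, DDX25, DDX28, DDX3Y, DDX4, DDX43, DDX53, DDX60 and DDX60L have no exon in the table.

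The series compares polyadenylated RNA of HEK293T, a transformed human embryonic kidney line, between 1 control library with no treatment and 1 library of cells given 300 µg/mL of amiloride for 6 h. Amiloride is a diuretic that blocks epithelial sodium channels. The values are differences in inclusion level between these libraries. The inclusion level is the share of an event's reads, per effective length, that come from the form that keeps the exon. The numbered libraries of the tables are not tied to a condition, so a positive difference means only that the first numbered library had the higher inclusion level, and no direction is assigned to amiloride. Each condition has 1 library, no replicate error can be given, and a call therefore sets these libraries apart, not the conditions. An exon is called here when any of its events has a deposited false discovery rate (FDR) under 0.1, and its value is that of the event with the lowest FDR.

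Of the 477 helicase exons, 177 were called, or 37.1%, against 35.8% of all exons in the table (24008 of 67154). The share in the helicases was near that background. The called exons had a positive difference in 173 cases and a negative one in 4, whereas 34.2% of all exons in the table were called with a positive and 1.54% with a negative difference. Positive values thus made up 97.7% of the called helicase exons and 95.7% of all called exons. The median difference of the called helicase exons was 0.089, with quartiles of 0.032 and 0.175, and that of all called exons was 0.109, with quartiles of 0.050 and 0.231. In 82 helicase exons (17.2%) the difference was also at least 0.1 in size, against 19.9% in the whole table. Called exons were spread over 41 genes, and the 8 genes without one were DDX18, DDX47, DDX58, DDX59, DHX15, DHX32, DHX58 and DDX11-AS1. The DDX genes had 122 of 306 exons called (39.9%) and the DHX genes 55 of 171 (32.2%).

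**Figure D1:**
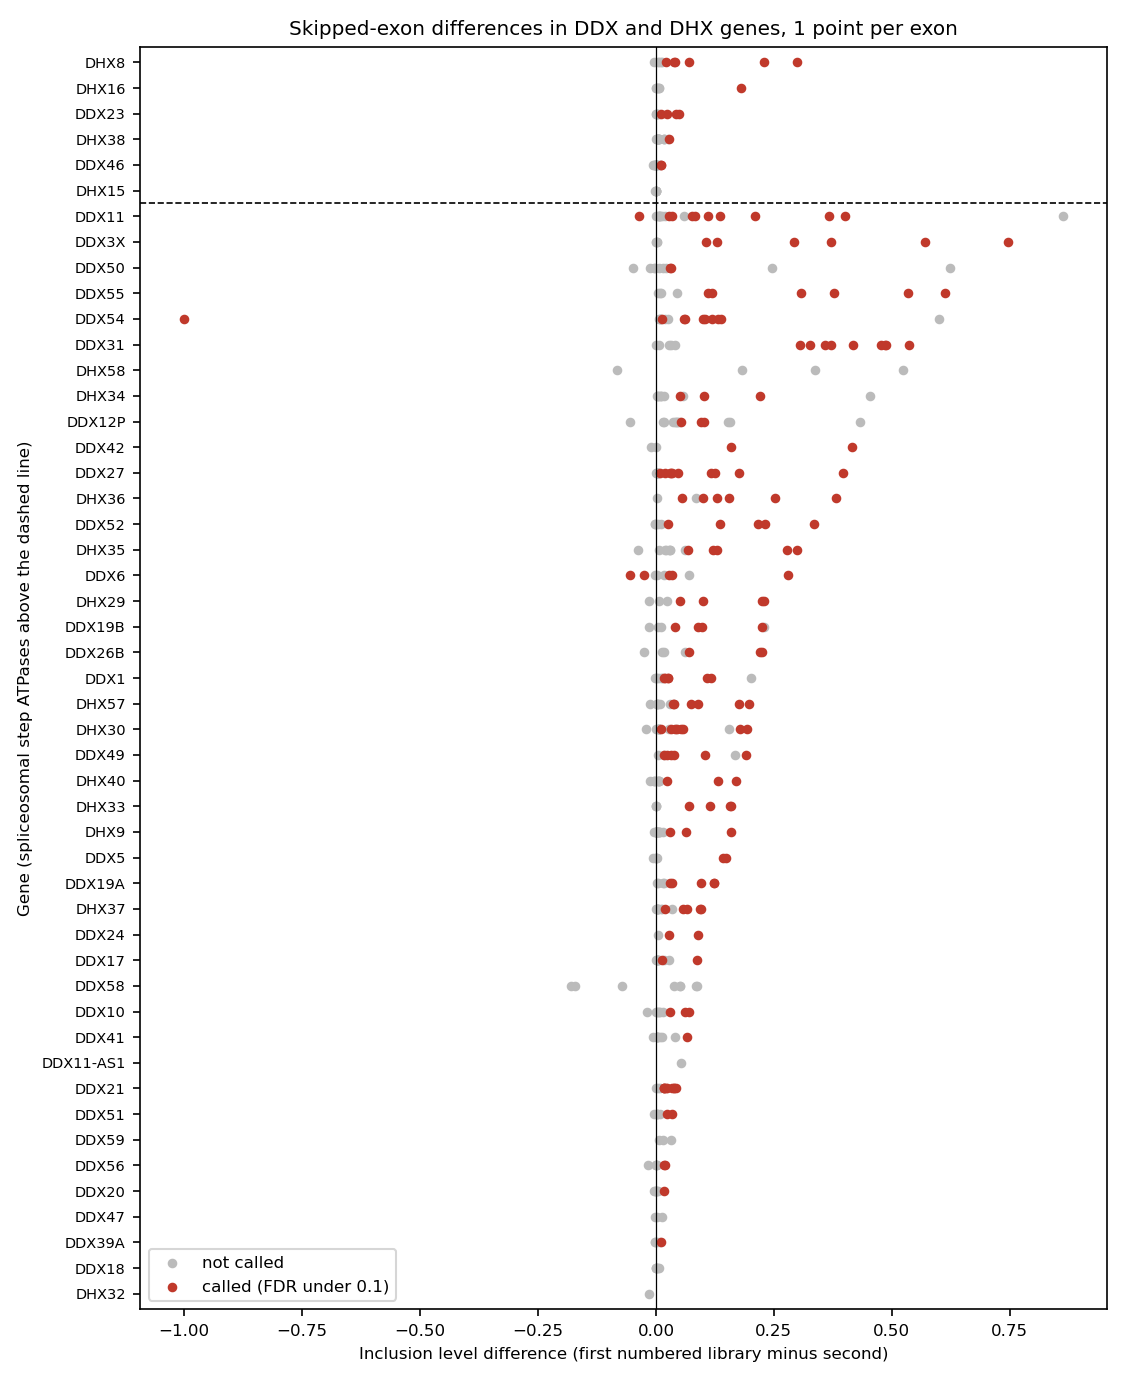
Each point is 1 exon of a DDX or DHX gene, placed by its inclusion level difference (first numbered library minus the second, no unit), with the 6 spliceosomal genes above the dashed line. Called exons (red) lie to the right of 0 in all but 4 cases, and among them the largest differences belong to DDX3X, DDX55 and DDX31 on the positive side and to DDX54 on the negative side. Uncalled exons (grey) reach 0.863 in DDX11.

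Many of these values came from events that skip more than 1 exon of the canonical transcript. For 73 called exons the event of lowest FDR joined exons that lie farther apart than the immediate neighbours, with a median difference of 0.117, and for 102 it skipped the exon alone, with a median of 0.0545. The first kind could be compared with the event that skips the same exon alone in 52 exons, and that event passed in 11 of them, with a difference of at least 0.1 in 2. Counted only by the event that skips 1 canonical exon alone, 109 of 350 helicase exons passed, or 31.1%, against 30.9% of 47744 exons over all genes. Their median difference was 0.047, and that of all such called exons was 0.088. The reads of an event also include those on the exon body, so events of the same exon share reads. Both kinds of value are given below for the leading helicase exons where they differ. All other skipped-exon values, including shares, ranges and those of related genes, are of the event with the lowest FDR unless stated otherwise.

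The spliceosomal ATPases had a smaller share of called exons than the other helicases, at 14 of 63 (22.2%) against 163 of 414 (39.4%). Their called exons all had positive differences, with a median of 0.040 against 0.095, and only 3 of them reached 0.1. By events that skip 1 exon alone the sets lay closer together, with 12 of 44 exons called (27.3%) and a median of 0.041 against 97 of 306 (31.7%) and a median of 0.051. An exon with more events also has more ways to be called. Of exons listed in exactly 1 event, 11 of 47 spliceosomal and 50 of 210 other exons were called, which are close shares. How many of the 40268 such exons over all genes were called was not computed. Whether the number of events bears on the lower spliceosomal share was not tested. No test was made between these sets, because exons of a gene are not replicates.

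DHX8 and DHX16 held all 3 of the spliceosomal exons with a called difference of 0.1 or more. DHX8, the homologue of yeast Prp22 that releases mRNA from the spliceosome, had 6 of 11 exons called. Its exon 20 of 23 differed by 0.300 and its exon 9 by 0.228, both with an FDR of 0, followed by exons 4 (0.069), 16 (0.040), 2 (0.039) and 7 (0.022). DHX16, the homologue of Prp2, which activates the spliceosome for its first catalytic step, had 1 of 7 exons called. That exon, 16 of 20, differed by 0.181 with an FDR of 0, whereas the other 6 listed DHX16 exons had differences from 0.001 to 0.007. Each of these 3 events skipped the exon alone. The exon with the largest value in each of these genes is printed as RNA-sense DNA on GRCh37, exon in capitals, with 20 bases of the intron before it and 6 of the intron after it in lower case.
DHX8 exon 20, chr17:41598099-41598253, + strand: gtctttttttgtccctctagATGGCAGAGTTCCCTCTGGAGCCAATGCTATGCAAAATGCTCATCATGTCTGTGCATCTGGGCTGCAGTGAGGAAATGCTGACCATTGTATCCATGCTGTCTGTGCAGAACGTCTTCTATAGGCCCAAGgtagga
DHX16 exon 16, chr6:30623969-30624062, - strand: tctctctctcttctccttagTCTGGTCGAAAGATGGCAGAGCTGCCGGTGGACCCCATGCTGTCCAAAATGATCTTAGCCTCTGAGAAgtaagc

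Both printed exons carry the codons of a stretch of 8 residues that DEAH proteins share downstream of the DEAH box. This stretch was chosen after the values of these exons were seen. A protein-level pattern found it once in each of 14 of the 16 DHX genes, and in all of them it lay within 1 exon. The exon was listed in 10 genes and called in 4, namely DHX8 (0.300), DHX34 (0.221), DHX16 (0.181) and DHX33 (0.160). In each of these genes it had the largest called difference. For DHX8 and DHX16 this rank was known when the stretch was chosen, and DHX16 had no other called exon. The DHX34 event joins exon 5 to exon 15, and no event skips its exon 7 alone. The share of 40% lies near the 35.8% of all exons, and 2 of the 4 values were known when the stretch was chosen, so the count shows nothing particular to it. The values of the 6 exons that were not called lay between -0.004 and 0.011, in DHX15, DHX35, DHX37, DHX40, DHX57 and DHX9. The 24 bases of the stretch are shown for the 4 called exons and for DHX15, the spliceosomal member whose exon was listed but not called.
DHX8, exon 20, chr17:41598119-41598142, + strand: ATGGCAGAGTTCCCTCTGGAGCCA
DHX16, exon 16, chr6:30624007-30624030, - strand: ATGGCAGAGCTGCCGGTGGACCCC
DHX33, exon 9, chr17:5354139-5354162, - strand: ATGGCAGCATTTCCTTTAGAACCC
DHX34, exon 7, chr19:47870382-47870405, + strand: CTAGCCCAGCTGCCTGTGGACGTT
DHX15, exon 10, chr4:24541810-24541833, - strand: ATGGCAGAGTTTCCTCTAGATCCA
The exons that hold these closely related codons differ in length, from 68 bases in DHX16 to 192 bases in DHX15.

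The other spliceosomal members had small differences. DDX23, the homologue of Prp28, which displaces U1 from the 5′ splice site, had 4 of 9 exons called, with exon 7 at 0.049 and exon 14 at 0.042, both with an FDR of 0. DHX38, the homologue of Prp16 and active in the second catalytic step, had 1 of 16 exons called, exon 7, at 0.028 with an FDR of 0.0158, in an event that joins exon 3 to exon 8 and skips 4 canonical exons, and no event skips exon 7 alone. DDX46, the homologue of Prp5, which acts when U2 binds the branch site, had exons 3 and 17 called, at 0.010 each and with FDRs of 0.0333 and 0.0699. DHX15, which takes spent or faulty spliceosomes apart, had none of 6 exons called, and its differences ran from -0.001 to 0.001. DDX39B, the homologue of Sub2 in early spliceosome assembly and mRNA export, had only 1 alternative 3′ splice site event, at 0.007 with an FDR of 0.617.

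**Figure D2:**
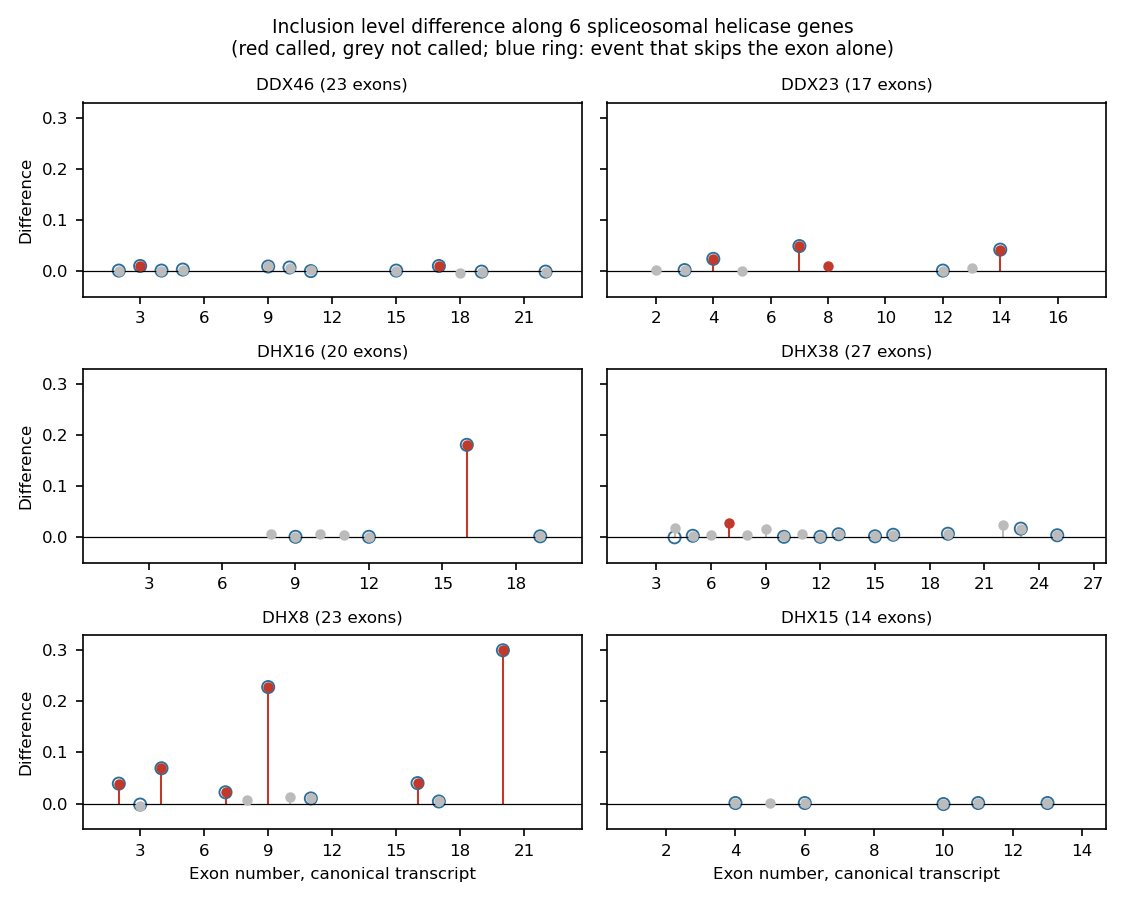
Inclusion level difference (vertical axis, no unit) of each listed exon by its number in the canonical transcript (horizontal axis) for the 6 spliceosomal genes with skipped exons, red where called and grey where not. Blue rings give the event that skips the exon alone, and in the panels DHX8 and DHX16 the exons at 0.300, 0.228 and 0.181 stand above all other exons.

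Among the other roles, helicases of translation and mRNA turnover had the highest share, with 24 of 46 exons called (52.2%) and 17 (37%) at 0.1 or more. They are DDX3X, which helps ribosomes through structured leader sequences, DDX6, which represses and helps to decay mRNA, DHX29, which assists ribosome scanning, DHX36, which unwinds G-quadruplexes, and DHX34, which acts in nonsense-mediated decay. The 16 ribosome biogenesis helicases had 74 of 158 exons called (46.8%), of which 34 reached 0.1. The mRNA export helicases DDX19A, DDX19B and DDX39A had 10 of 22 (45.5%), and DHX30, which acts in mitochondrial ribosome assembly, had 8 of 19 (42.1%). DDX1, which works with the tRNA ligase complex, had 6 of 13 (46.2%), DDX20, a part of the SMN complex, 1 of 7 at 0.018, and DDX11 with its pseudogene DDX12P 13 of 35 (37.1%). Members that copurify with spliceosomes or regulate splicing (DDX5, DDX17, DDX41, DDX42, DHX35 and DHX9) had 15 of 64 (23.4%), a share close to that of the spliceosomal ATPases, although the median of their called exons was higher at 0.129. These shares count a call in any event of an exon, and roles differ in events per exon. Exons with exactly 1 event were 26 of 46 in translation and mRNA turnover, 67 of 158 in ribosome biogenesis and 8 of 22 in mRNA export. Differences between roles were not tested.

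**Figure D3:**
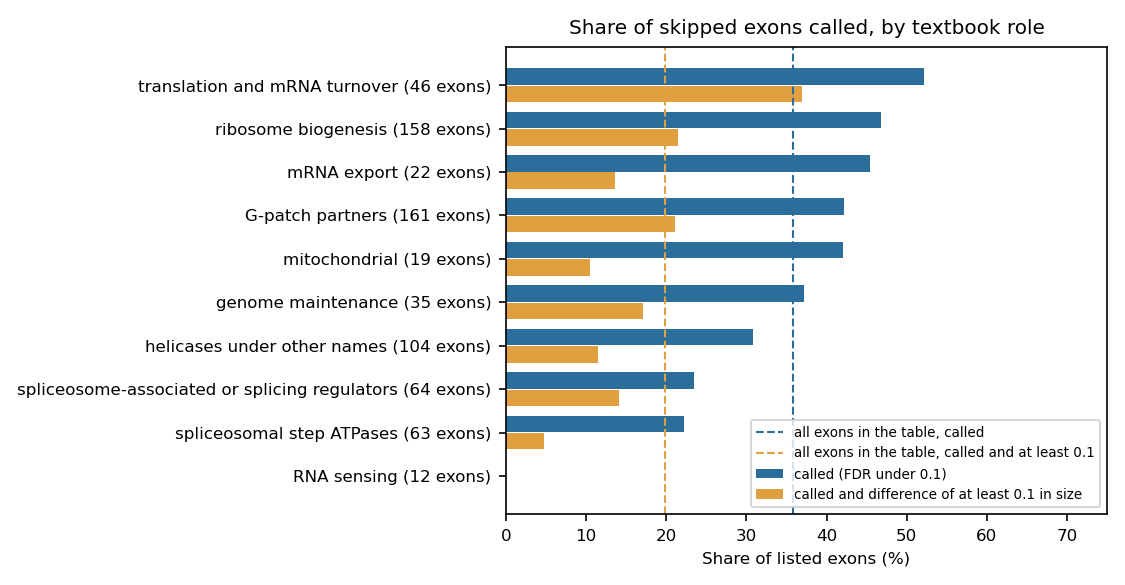
Horizontal bars give the percentage of listed exons that were called (blue) and called with 0.1 or more in size (orange) for each role of the DDX and DHX genes and for both lists of related genes. Dashed lines mark the same percentages over all exons, 35.8% and 19.9%, and the spliceosomal ATPases lie below both lines at 22.2% and 4.76%.

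DDX3X had the largest positive difference among called helicase exons. Its exons 2 and 3 of 17 differed by 0.571 and 0.747, both with an FDR of 0, in events that share the annotated junction from exon 1 to exon 4. When skipped alone they differed by 0.020 (FDR of 0.00753) and by -0.001 (FDR of 1), and the large values were those of the junction that removes the pair. Exons 8 (0.372), 6 (0.292) and 15 (0.129) differed in events that skip the exon alone. Both exons of the pair are coding and lie on the + strand of chromosome X, and they are printed with the exon in capitals.
DDX3X exon 2, chrX:41196641-41196724, + strand: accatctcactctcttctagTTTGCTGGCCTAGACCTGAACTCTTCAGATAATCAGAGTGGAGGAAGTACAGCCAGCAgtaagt
DDX3X exon 3, chrX:41198269-41198342, + strand: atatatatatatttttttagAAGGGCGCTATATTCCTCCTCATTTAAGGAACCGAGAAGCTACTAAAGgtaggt
Exon 3, at 48 bases, has a length that keeps the reading frame, and exon 2, at 58 bases, does not, so losing the pair does not keep it either.

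DHX36 had 6 of 8 exons called, all in events that skip the exon alone, led by exon 19 of 25 at 0.381, exon 22 at 0.253 and exon 21 at 0.155. DHX29 had 4 of 7 called, with exon 17 at 0.229 and exon 20 at 0.224. DDX6 was mixed in sign. Its exon 7 differed by 0.279 with an FDR of 0, whereas exon 6 at -0.055 and exon 9 at -0.026 were among the 4 negative called exons. In each of these DDX6 exons the event skipped the exon alone.

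DDX31, a nucleolar helicase of ribosome assembly, had the highest median of called exons of any helicase gene, 0.418. Of its 14 listed exons 9 were called, and all 9 differed by 0.306 to 0.536. Exons 3 (0.371), 5 (0.488) and 8 (0.418) were each skipped alone in their 1 event, with an FDR of 0. Exons 12, 13, 15, 16, 17 and 18 were called in events that skip a longer part of the region between exons 11 and 19, with exon 15 highest at 0.536. Where exons 12, 13, 16, 17 and 18 were skipped alone, the differences ran from 0.004 to 0.047, and only that of exon 17 passed, with an FDR of 0.0457. Exons 5 and 8 held the largest differences among the 350 helicase exons with an event that skips 1 canonical exon alone, called or not, and are printed as above.
DDX31 exon 5, chr9:135535091-135535187, - strand: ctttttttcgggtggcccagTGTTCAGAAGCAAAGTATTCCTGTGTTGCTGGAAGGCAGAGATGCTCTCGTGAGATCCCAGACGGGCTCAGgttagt
DDX31 exon 8, chr9:135526456-135526523, - strand: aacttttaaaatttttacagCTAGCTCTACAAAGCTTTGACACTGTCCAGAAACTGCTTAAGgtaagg
Exon 5 has a length of 71 bases, which breaks the reading frame, and exon 8 has 42 bases, which keeps it.

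DDX55, another ribosome assembly helicase, had 6 of 10 exons called, in a group near each end of the transcript. Exon 11 of 14 (chr12:124102305-124102419) differed by 0.612 and exon 12 by 0.535, both in events that join exon 10 to exon 13. Skipped alone, exon 11 differed by 0.102 with an FDR of 4.16e-12 and exon 12 by 0.003 with an FDR of 1. Exon 10 differed by 0.307 in an event joining exons 9 and 13, and by 0.001 when skipped alone. The pair of adjacent exons 11 and 12 in DDX55 resembled exons 2 and 3 of DDX3X in that the large values came from events on the junction that removes both.

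DDX11 and DDX27 had the most called exons, 10 each, or 50% and 58.8% of those listed. DDX21 (69.2%), DDX31 (64.3%) and DDX54 (56.25%) followed with 9. These counts depend on how many exons of a gene are listed, and over all exons 35.8% were called. By share DHX36 was highest, at 75%. DDX11, a DNA helicase of genome maintenance, had its largest called value in exon 9 (0.400, FDR of 1.43e-07), in an event from exon 3 to exon 13, and a difference of 0.211 in exon 12 skipped alone. Its exon 24 was negative at -0.036. DDX11 and the pseudogene DDX12P are near-identical copies, as DDX19A and DDX19B are close copies, so reads may have been split between them and their values are uncertain. DDX27 differed by 0.396 in exon 8 of 21 when joined from exon 6 to exon 10 and by 0.003 (FDR of 1) when that exon was skipped alone, whereas exon 13 skipped alone differed by 0.175. DDX21, which links ribosomal RNA synthesis and processing, had the longest run of called neighbours, exons 7 to 12, but with small differences of 0.016 to 0.043 over its 9 called exons.

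DDX54 held the largest negative value. Its exon 6 of 20, 42 bases long, had a difference of -1 with an FDR of 0.0530 in an event that joins exon 2 to exon 11 and skips 8 canonical exons. The other event of that exon also stood at -1 and did not pass. All other called DDX54 exons were positive, from 0.013 to 0.138, with exon 3 skipped alone at 0.138. The reads behind the value of -1 were not used here, so how many reads it rests on is not known. Large positive differences also occurred without a call, such as 0.863 in DDX11 exon 7 (FDR of 0.472), 0.624 in DDX50 exon 10 (FDR of 0.247) and 0.599 in DDX54 exon 9 (FDR of 0.802).

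**Figure D4:**
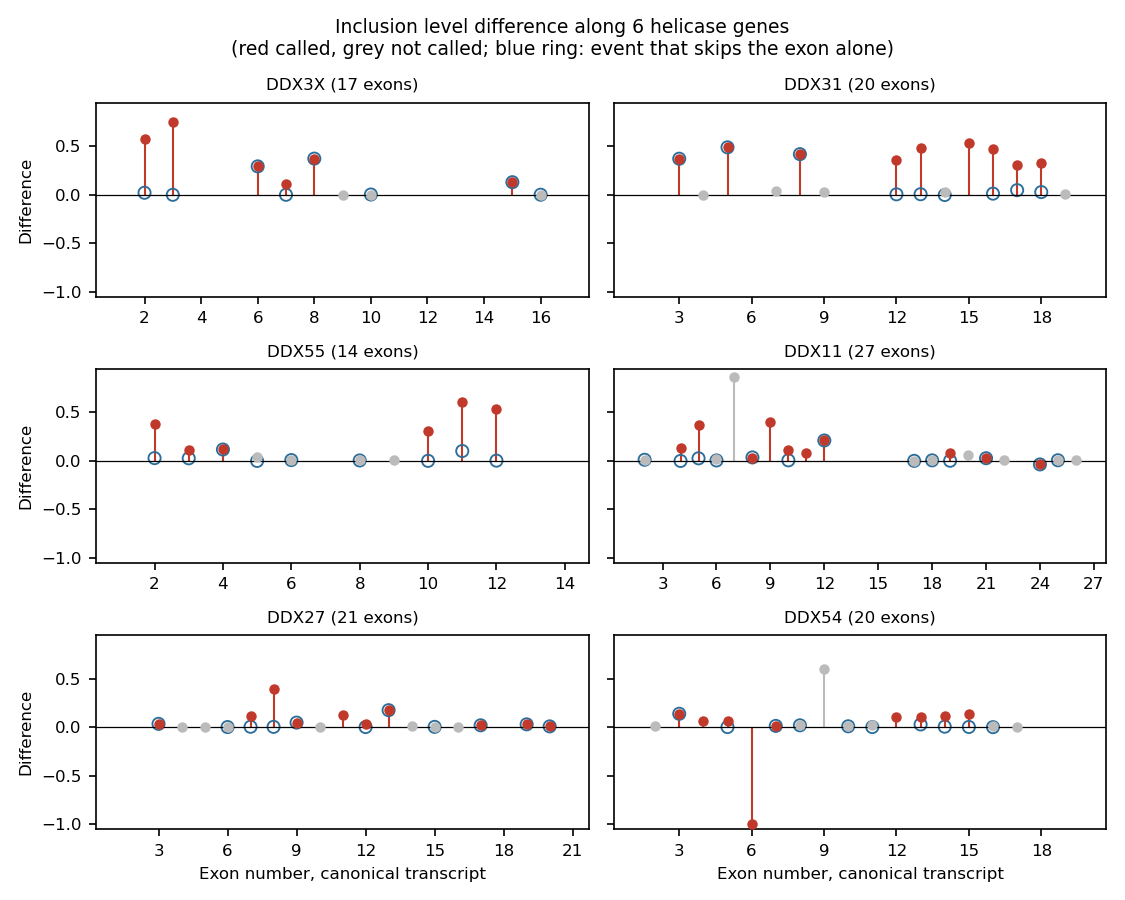
Inclusion level difference (vertical axis, no unit) of each listed exon by its number in the canonical transcript (horizontal axis) for 6 helicase genes, red where called and grey where not, with blue rings for the event that skips the exon alone. In DDX3X, DDX31 and DDX55 several rings lie near 0 below a high red point, while in exons 6 and 8 of DDX3X and exons 3, 5 and 8 of DDX31 ring and point coincide.

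The remaining large values lay in splicing-associated and ribosomal members. DDX42, a protein that binds the U2 particle, differed by 0.415 in exon 5 of 18, which its only event skips alone over an annotated junction. DDX52 differed by 0.335 in exon 12 of 16 in an event joining exons 11 and 15, and by 0.021 (FDR of 0.00952) when exon 12 was skipped alone. DHX35, which copurifies with spliceosomes, differed by 0.298 in exon 18 of 22 with an FDR of 1.36e-05, in an event from exon 17 to exon 20. The splicing regulators DDX5 and DHX9 showed the same contrast, with DDX5 exon 11 at 0.149 against 0.000 when skipped alone and DHX9 exon 23 at 0.160 against 0.001. The DDX42 exon is short, at 37 bases, with a 3′ splice site score of 13.3 and a 5′ splice site score of 8.89.
DDX42 exon 5, chr17:61876929-61876991, + strand: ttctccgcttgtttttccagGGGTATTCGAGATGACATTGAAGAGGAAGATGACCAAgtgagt

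The genes with no called exon included both RNA sensors in the table, DDX58 (RIG-I) with 8 exons and DHX58 (LGP2) with 4. Their uncalled differences were not small, from -0.180 to 0.086 in DDX58 and from -0.083 to 0.524 in DHX58, with a lowest FDR of 0.238 and 0.111. By contrast DDX18, a ribosome assembly factor with 6 exons, stayed between 0.001 and 0.007, and DDX47, which acts in early ribosomal RNA processing, between -0.001 and 0.012 over 3 exons. DDX59 had 3 exons from 0.006 to 0.031, DHX32 had 1 at -0.014 and DDX11-AS1 had 1 at 0.053. DDX11-AS1 lies antisense to DDX11, and whether the counting used strand is not given in the sources used here.

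The codons of the DEAD or DEAH box itself were located in 44 of 47 coding genes, by a search for the box downstream of the ATP-binding loop. The exon in which the box begins was listed in 24 genes and called in 8, a share of 33.3% that lies near the 35.8% of all exons. DDX6 had the largest of these values, in exon 7 (0.279), followed by DHX40 in exon 4 (0.131) and DDX11 in exon 10 (0.111). The event that skips DHX40 exon 4 alone had a difference of 0.009, and that for DDX11 exon 10 had 0.006. The others were DHX37 exon 8 (0.058), DDX27 exon 9 (0.047), DDX19B exon 8 (0.040), DDX20 exon 4 (0.018) and DDX54 exon 7 (0.013). In DDX19A and DDX19B the 30 bases around the box are identical, with differences of 0.004 (FDR of 1) and 0.040 (FDR of 0.00688). The codons of the box are printed in capitals for the 3 leading genes and for this pair, with the GRCh37 position of the capitals where they lie in 1 exon. In DDX6 the box is split by the intron between exons 7 (118633921 to 118634015) and 8 (118630631 to 118630753).
DDX6 exons 7 and 8, - strand of chromosome 11: atagtattgGATGAGGCAGATaagttgctg
DHX40 exon 4, chr17:57650567-57650578, + strand: attattttgGATGAAGCCCATgaaagaact
DDX11 exon 10, chr12:31244740-31244751, + strand: gtgatcatcGACGAGGCGCACaacctgatc
DDX19A exon 8, chr16:70400104-70400115, + strand: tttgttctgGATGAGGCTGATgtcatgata
DDX19B exon 8, chr16:70363311-70363322, + strand: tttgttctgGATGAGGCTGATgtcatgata

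Called helicase exons were shorter than the others, with a median of 96 against 132 bases, and in the whole table the medians were 102 and 123. Their lengths were a multiple of 3 in 36.7% of called and 41.0% of other exons, against 36.3% and 40.2% over all genes. Of the called exons 171 were coding, and 65 of these (38%) kept the frame. Splice site strength was scored against the base composition of annotated sites, where a higher score on the log2 scale means a closer match. The median 5′ splice site score was 7.83 in called and 8.26 in other helicase exons (7.96 and 8.16 over all genes), and the median 3′ score was 9.01 and 9.50 (9.04 and 9.30 over all genes). The skipping junction was annotated for 37 called exons (20.9%) and for 9.33% of the others, below the 27.4% and 17.4% of all genes. The direction of each of these contrasts was the same in the helicases as in the whole table. By position, when each transcript was cut into 3 equal parts by exon number, 62 of 152 exons of the 5′ part were called (40.8%), 52 of 160 of the middle part (32.5%) and 59 of 148 of the 3′ part (39.9%).

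Events of mutually exclusive exons weigh 1 exon against another exon of the gene, which need not be its neighbour. Of 339 such events in helicase genes 148 were called (43.7%), in 36 of 44 genes, against 39.3% of all 39869 events. Signs were mixed here as in the whole table, with 80 positive and 68 negative (54.1% positive, against 56.8% of called events over all genes). A size of 0.1 was reached by 32 called events (21.6%), against 37.7% over all genes. A positive value means more of the exon that comes first in the transcript, as the effective lengths show for the 5 leading pairs. In DDX3X the pair of exons 7 and 8 differed by -0.520, toward exon 8, the exon whose skipping alone differed by 0.372. In DDX6 exons 7 and 8 differed by 0.314, toward exon 7. The other leading pairs were exons 19 and 20 of DHX57 (0.25), exons 13 and 14 of DDX31 (0.239) and exons 4 and 5 of DDX55 (0.191). Each of these pairs has further events with other flanking exons, and their values were smaller. They were -0.108 in DDX3X and 0.144 in DDX6, both called with the same sign as above, and 0.050 in DHX57 and 0.007 in DDX31, neither called. In DDX55 a further event was called with the opposite sign, at -0.028 with an FDR of 0.0481, and another stood at 0.002. These events share reads with the skipped-exon events of the same genes and are no separate evidence.

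Alternative splice sites were few. Of 4 alternative 5′ splice site events 1 was called, against 28.2% of all such events in the table. This was a 3-base choice at the end of DDX46 exon 19 (0.102), whose canonical form is the longer one, at 177 against 174 bases. Of 11 alternative 3′ splice site events 6 were called, against 23% in the table. They were a 3-base choice in the last exon of DDX54 (-0.131), a 20-base choice in DHX35 (-0.185), a 73-base choice in DDX11 exon 2 (0.139), a 71-base choice in DDX49 exon 2 (0.032) and a 3-base choice in DDX3X exon 16 that was called against 2 flanking exons with opposite signs (-0.043 and 0.017). No helicase gene had a retained intron event, of which the table holds 677, with 48.2% called. The tandem sites are printed with the added bases in capitals.
DDX46, 5′ splice site, chr5:134152288-134152305, + strand: tctcagGTAttaagtaat
DDX54, 3′ splice site, chr12:113596909-113596935, - strand: cctgaatccctgtcccagCAGgtgcat
DDX3X, 3′ splice site, chrX:41206547-41206573, + strand: ataatttttttcttatagTAGcagatt
DHX35, 3′ splice site, chr20:37617418-37617461, + strand: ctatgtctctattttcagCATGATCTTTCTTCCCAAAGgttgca
The 3-base choices in DDX54 and DDX3X both lie at tandem AG sites. In DDX46 the intron begins with GT after the shorter form and with tt after the longer one.

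Related genes of the same pathway were counted from fixed lists. Helicases under other names had 32 of 104 exons called (30.8%), in 10 of 11 listed genes, with 31 positive and 1 negative. Among them SNRNP200, which unwinds U4 from U6, had 3 of 14 called, from 0.010 to 0.379, and HELZ reached 0.649. EIF4A3, the helicase of the exon junction complex, had 3 of 7 called at no more than 0.053. G-patch proteins, some of which switch on DEAH helicases, had 68 of 161 exons called (42.2%), in 18 of 21 genes, with 67 positive and 1 negative. RBM5 had 13 of 20 exons called, up to 0.817, CMTR1 reached 0.914 and TFIP11, the partner of DHX15, reached 0.522, whereas DHX15 had no called exon and CHERP none of 9. Of all exons, 35.8% were called, a share between those of both lists. Positive values made up 95.7% of all called exons, near the 96.9% of the helicases under other names and the 98.5% of the G-patch proteins. Neither list was tested against all exons.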

How the data were processed

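PolyA+ RNA of HEK293T cells, 1 control and 1 amiloride library, was sequenced by the authors as 126-base paired reads. The submitters' processing notes name STAR 2.5.1 and the builds hg19 and GRCh37, and the authors ran rMATS, whose version is not given in the sources used here. The 5 deposited tables hold the authors' own comparison, namely the p-value of each event, its FDR and an inclusion level difference, a score from -1 to 1 on the fraction scale, and these were used as deposited, since no other column can be tied to a library without guessing. The other 30 columns hold reads and inclusion levels per numbered library and were not used in any step, so the depth and the reads behind a value are not given. In the deposited tables the effective length of the inclusion form, a score in bases, exceeds that of the skipping form by the exon length in 100% of events with an exon longer than the skipping form. Adjusting the deposited p-values by Benjamini and Hochberg's method gave the deposited FDR to within 5e-13.

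Events with the same exon position and strand were treated as 1 exon. Exons, codons and splice sites were placed on the GRCh37 sequence with the canonical transcripts of GENCODE release 44 lifted to that build. Coordinates are 1-based. Of the 49 symbols in the skipped-exon table, 47 matched by symbol and 2 by an older symbol. Splice site scores cover 9 bases at the 5′ and 23 bases at the 3′ splice site, from 300873 and 300290 annotated sites with a pseudocount of 0.5. Named exons follow a rule: each spliceosomal ATPase, the 10 largest positive called differences with 1 exon per gene, the negative ones (the rule asked for 5 with 1 exon per gene, but only 4 exons in 3 genes were negative, and all 4 are named), the 3 genes with most called exons and those with none, every called alternative splice site and the leading mutually exclusive pair of 5 genes. Further exons of the same genes, and those of related genes, were named after their values were seen. Members, role lists and rules were chosen with earlier results of these data known. The grouping was tested on simulated data. Python 3.11.15, numpy 2.4.6, pandas 2.3.3, pysam 0.24.0 and matplotlib 3.10.9 were used.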

Additional observations from a re-analysis of the deposited data

How the results depend on the processing

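No paired analysis was possible because control and amiloride are represented by 1 library each. No replicate could be left out either. Of 72 values recomputed under the alternatives, 48 stayed close to the reported value and 24 moved.
At an FDR under 0.01 the share of helicase exons called was 29.4%, their median difference 0.107, the spliceosomal count 8 and the count of mutually exclusive events 91. With a difference of at least 0.1 required as well, 82 exons (17.2%) were called with a median of 0.186, 3 spliceosomal and 79 other, beside 32 mutually exclusive and 3 alternative 3′ splice site events. Among exons listed in exactly 1 event, 61 were called (23.7%), all positive (100%), with a median of 0.054. These were 11 of 47 such exons in the spliceosomal genes and 50 of 210 outside them. When every event of an exon had to pass, 80 were called (16.8%), all positive (100%), 68 of them outside the spliceosomal genes. By the event that skips the exon alone, an alternative chosen after seeing the data, 109 were called (31.1%), with a median of 0.047 and 97 outside the spliceosomal genes. Here DDX3X exon 3 went from 0.747, in the event joining exon 1 to exon 4, to -0.001, which was not called. Why the values of these 2 events differ was not tested. Fewer exons could be called under each of these settings by construction. Over all exons the share was 19.9% with a difference of at least 0.1 and 30.9% by the event that skips the exon alone. For the other settings the share over all exons is not given here.
Without DDX31, also left out after seeing the data, 168 helicase exons (36.3%) were called with a median of 0.073. The limits are the missing replicates, the unnamed order of the libraries and the unused reads per event.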
